A study of Homo sapiens with 33 samples.

Results

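Ribosome biogenesis factors are the proteins that transcribe, modify, cleave and fold ribosomal RNA and join it to ribosomal proteins. A set of 52 such genes was listed by name, and 45 of them were measured among the 19775 genes of these arrays, each by its brightest probe set over all 33 arrays. The 7 others were not analysed here: NOP56, DKC1, BOP1 and PPAN were matched only by probe sets that the annotation gives to several genes, and GNL3, EBNA1BP2 and DDX18 by none. The genes were chosen by function and not by a threshold on these values, but with earlier results of these data known. Their counts are thus a description and no independent test.

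Ribosomes are built mainly in the nucleolus, where RNA polymerase I transcribes a long precursor RNA. Small nucleolar ribonucleoproteins (snoRNPs) then methylate or pseudouridylate it at chosen bases, and the small and large subunit processing complexes, with their helicases and nucleases, trim and fold it. Growing cells spend much of their resources on this pathway, and many of its genes are textbook targets of the transcription factor MYC, which binds the DNA motif CACGTG.

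The cells were Karpas422, an established line grown from a human B cell lymphoma, which the series title describes as EZH2 mutant. EED226 is an allosteric inhibitor of the Polycomb complex PRC2, whose catalytic subunit is EZH2. It was given at 5 µM, and the controls received the solvent DMSO. The sources do not name the compound alike: the series title and every treated sample's title name EED226, the treatment protocol names EI1 beside it, and the design text speaks of an EZH2 inhibitor. Samples are called EED226 here after their titles. There were 11 groups of 3 arrays: cells at 0 h, whose treatment the labels do not state, and cells with DMSO or with EED226 at 8 h and at days 1, 2, 3 and 6. All groups are the same 1 line. The replicates of a group are called biological triplicates in the design text, and p-values measure the spread between these samples. The comparisons asked when, and by how much, the treated cells parted from their solvent controls, and how the controls moved from 0 h.

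Values are log2 expression levels made by the authors with RMA (robust multi-array average), which scales the arrays to each other. A level is thus relative to the other genes on the array. Array medians ran from 4.06 to 4.18, but the deposited arrays were not equal in their upper range. The upper quartile was 6.53, 6.55 and 6.10 on the DMSO arrays of day 6 and 6.68 to 6.74 on the EED226 arrays of day 6. Arrays of a group correlated at 0.994 or more over all probe sets, except DMSO day 6 replicate 3, which correlated at 0.986 and 0.987 with the other arrays of its group. Of 7 listed B cell markers, 6 were measured, from CD22 at 8.15 to MS4A1 at 12.53 on average. Of 5 T cell markers, CD2 and CD8A stood at 3.01 and 3.18, while CD3D and CD3G stood at 8.83 and 10.36. The mean of the 5 T cell markers was 5.92 to 6.07 on the DMSO arrays of day 6 and 5.61 to 5.82 on the EED226 arrays. That of the 4 measured myeloid markers was 3.55 to 3.67 and 3.86 to 4.09, and that of the 6 B cell markers 10.34 to 10.66 and 10.92 to 11.07. The 6 fibroblast and epithelial markers averaged 4.07 to 4.56 with DMSO and 3.91 to 3.96 with EED226. The part of these shifts in the results below was not tested.

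Ribosome biogenesis genes fell with EED226 from the second day, and by the sixth day almost all of them were lower than in the solvent controls. A gene is said to have passed the test, and to have risen or fallen, where its Benjamini-Hochberg adjusted p in the limma fit over all 19775 genes was under 0.05. At 8 h, 0 of 45 genes passed, as did 0% of all genes, and 0 had an unadjusted p under 0.05. At day 1, 0 of 45 passed beside 0.87% of all genes, and 1 had an unadjusted p under 0.05. Shares of all genes at an unadjusted p under 0.05 are not given here or below. The median difference between EED226 and DMSO was -0.01 at 8 h and -0.04 at day 1 on the log2 scale. At day 2, 12 of 45 had fallen and 0 had risen, with a median of -0.18, while 2.68% of all genes had fallen. At day 3, 31 of 45 had fallen and 0 had risen, with a median of -0.28, while 11.2% of all genes had fallen. At day 6, 44 of 45 had fallen and NOP10 alone had risen. The median at day 6 was -0.72, a level 1.65-fold lower, where the median over all genes was -0.11. At that time 27.3% of all genes had fallen and 23.7% had risen. In bulk RNA, fewer cells that express a gene and less of its RNA per cell cannot be told apart.

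**Figure D1:**
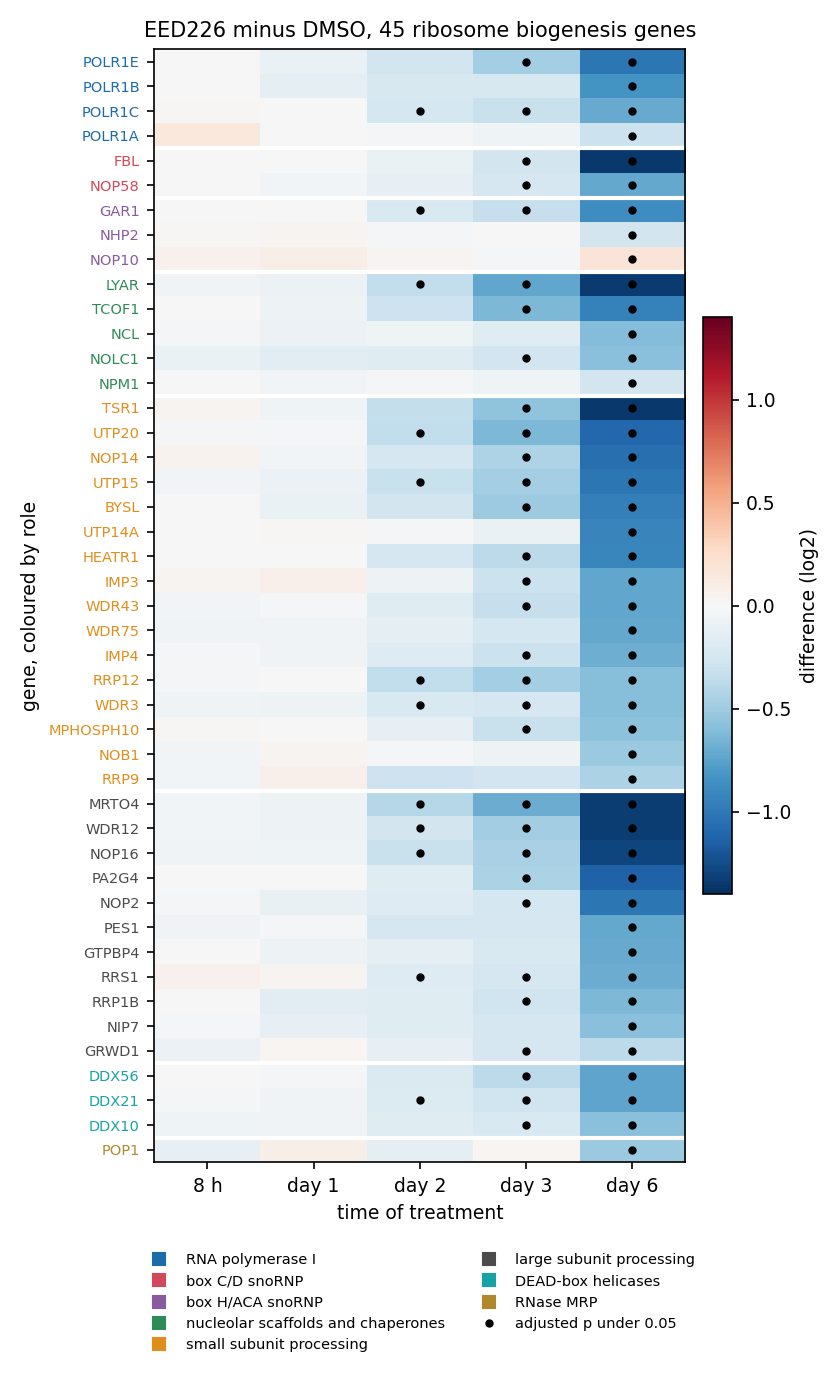
Differences between EED226 and DMSO (log2, colour; mean of 3 arrays minus mean of 3) for the 45 measured genes (rows, grouped by role) at 5 times (columns); a dot marks an adjusted p under 0.05 in the limma fit. Dots appear for 12 genes at day 2, 31 at day 3 and 45 at day 6, and NOP10 is the only red cell at day 6.

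The arrays showed the same course without a model. The median level of the 45 genes was 10.09, 10.21 and 10.07 on the 0 h arrays and 9.95, 9.93 and 9.93 with DMSO at day 6. With EED226 it was 9.59, 9.58 and 9.50 at day 3 and 8.94, 8.91 and 9.02 at day 6, the lowest 3 values of the 33 arrays. All 3 EED226 arrays lay below all 3 DMSO arrays for 28 of 45 genes at day 2, where 15.7% of all genes did. This held for 33 genes at day 3, where 19.1% of all genes did, and for 41 at day 6, where 28% did. POLR1A, RRP9 and POP1 overlapped at day 6. In the F test over the 5 EED226 comparisons, 42 of 45 genes passed, beside 40.6% of all genes. The other 3 were POLR1A, POP1 and NOP10, with adjusted p of 0.337, 0.265 and 0.124. Of the 8187 genes at least as bright as the dimmest of the 45, 5596 passed this F test. The shares of all genes given here and elsewhere include dimmer genes, of which a smaller share passed it.

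The day 2 count depended on single arrays. It was 2 without EED226 day 2 replicate 2, 5 without EED226 day 2 replicate 3, and 3, 4 and 5 without DMSO day 2 replicates 1, 2 and 3. It was 19 without DMSO day 6 replicate 3, which enters only through the shared spread. Shares of all genes in these runs are not given, so a move of the 45 genes alone is not shown. With every array centred on its median 3 genes had fallen, beside 1.57% of all genes. A second quantile normalization gave 21 genes, beside 4.51% of all genes. The share of falls among all calls at day 2 was 28.3% as deposited, 18.9% with centred medians and 38.9% after the second normalization. Under both scalings 0 of the 45 genes had risen.

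**Figure D2:**
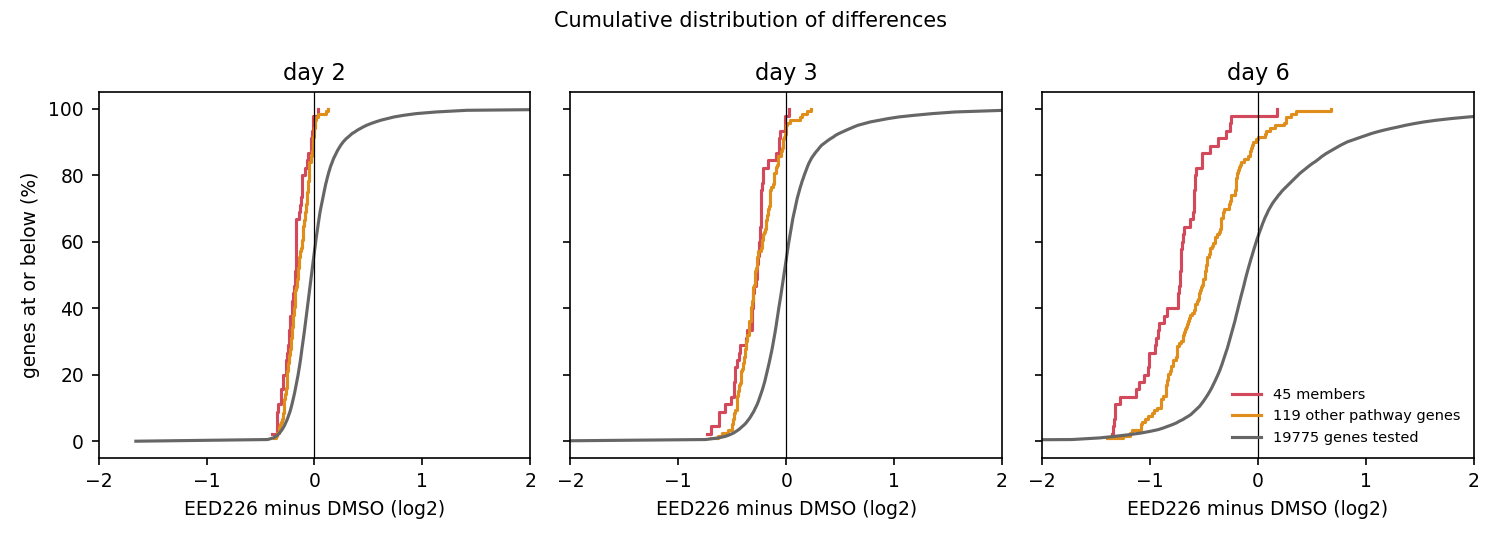
Cumulative share of genes (vertical axis, %) at or below a given difference between EED226 and DMSO (horizontal axis, log2) at days 2, 3 and 6, for the 45 listed genes (red), 119 other genes of the pathway (orange) and all 19775 genes (grey). The medians of the 45 genes are -0.18, -0.28 and -0.72; the few differences past the axis limits are not drawn.

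The DNA motif CACGTG stood near the annotated start of 15 of these genes. RefSeq promoter sequences, from 250 bases before to 50 bases after the annotated start on GRCh38.p14, were found for 36 of the 45 genes. The motif CACGTG, which reads the same on both strands, stood in 15 of these 36 windows (41.7%). It stood in 10.9% of the windows of all measured genes that had one, in 13.5% of those of genes at least as bright as the dimmest of the 45, and in 28.7% of those of the other pathway genes. Sites are shown from 5 genes that fell and from NOP10, the riser. They are not the 5 largest falls with the motif: NOP14, at -1.06, and BYSL, at -0.96, fell more at day 6 than GAR1, at -0.87. So did NOP2, at -1.01, and UTP14A, at -0.93, whose motif stood too near the end of the sequence to show 30 bases. Each line is 30 bases on the gene's own strand, and capitals mark the motif.
FBL, chr19:39846356-39846385, minus strand: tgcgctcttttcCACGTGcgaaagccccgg
LYAR, chr4:4290068-4290097, minus strand: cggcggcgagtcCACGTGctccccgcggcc
MRTO4, chr1:19251807-19251836, plus strand: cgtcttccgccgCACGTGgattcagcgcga
UTP20, chr12:101280083-101280112, plus strand: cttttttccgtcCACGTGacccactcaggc
GAR1, chr4:109815781-109815810, plus strand: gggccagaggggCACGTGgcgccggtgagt
NOP10, nearer site, chr15:34343130-34343159, minus strand: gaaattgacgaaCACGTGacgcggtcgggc
NOP10, farther site, chr15:34343289-34343318, minus strand: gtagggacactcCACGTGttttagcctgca

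The motif lies downstream of the start in FBL, MRTO4 and GAR1, and upstream of it in LYAR, UTP20 and NOP10. Its first base is 7 bases after the start of FBL, 15 after that of MRTO4 and 32 after that of GAR1. It is 10 bases before the start of UTP20, 64 before that of LYAR, and 11 and 170 before that of NOP10. The median difference at day 6 was -0.93 for the 15 genes with the motif and -0.71 for the 21 without, ranges that overlapped from -1.35 to 0.18 and from -1.35 to -0.25. Other motifs were searched on both strands. CCAAT stood in 50% of the 36 windows and in 41.7% of all. For genes at least as bright as the dimmest of the 45 it was 44.6%, and for the other pathway genes 36.1%. In the same order, CCGGAAGT stood in 22.2%, 7.03%, 12.5% and 25.9%, and the palindrome that NRF1 binds in 5.56%, 2.04%, 3.39% and 5.56%. A match describes these letters and is no evidence of binding, which was not measured.

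RNA polymerase I was measured through 4 of its subunits, and all 4 fell at day 6. POLR1E, a subunit that acts in initiation, stood at 7.76, 7.70 and 7.21 on the DMSO arrays of day 6 and at 6.56, 6.51 and 6.54 on the EED226 arrays. The groups did not overlap, and the difference was -1.01 ± 0.11 (SE, n = 3 arrays a group, limma adjusted p = 4.75e-09). POLR1B, the second largest subunit, stood at 9.89, 9.76 and 9.76 with DMSO and at 8.94, 8.86 and 9.10 with EED226. It differed by -0.84 ± 0.09 at day 6, after -0.23 ± 0.09 at both day 2 and day 3, where it did not pass the test. Without DMSO day 3 replicate 3 it passed at day 3, at -0.35 (limma adjusted p = 0.00355). POLR1C, which RNA polymerase III also uses, had fallen by 0.24 ± 0.06 at day 2 and by 0.71 ± 0.06 at day 6.

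POLR1A, the largest subunit, which holds the catalytic site, changed least of the 4. Its DMSO arrays of day 6 read 7.53, 7.58 and 7.13 and its EED226 arrays 6.99, 7.19 and 7.17, so DMSO replicate 3 lay within the treated range. The difference of -0.30 ± 0.12 passed narrowly (limma adjusted p = 0.0450). It passed in 8 of 16 alternative settings, was -0.55 after a second quantile normalization, and was -0.44 ± 0.12 without DMSO day 6 replicate 3 (limma adjusted p = 0.00451). Leaving out each of the other 5 day 6 arrays in turn ended the call.

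Both measured proteins of the box C/D snoRNPs, which methylate ribosomal RNA, fell, and fibrillarin fell late. FBL, the methyltransferase, stood at 12.05, 12.02 and 12.02 with DMSO and at 10.52, 10.72 and 10.81 with EED226 at day 6. The difference was -1.35 ± 0.06 (limma adjusted p = 1.08e-16), a level 2.54-fold lower. At day 3 the arrays read 12.09, 12.05 and 12.06 with DMSO and 11.83, 11.85 and 11.77 with EED226, already without overlap, but the difference was only -0.25 ± 0.06. NOP58, a scaffold of the same particles, stood at 11.09, 11.07 and 11.15 with DMSO and at 10.18, 10.45 and 10.54 with EED226 at day 6, without overlap. It fell by 0.23 ± 0.07 at day 3 and by 0.72 ± 0.07 at day 6. Its day 3 call was lost without DMSO day 3 replicate 1 or 2 or without EED226 day 3 replicate 2 or 3.

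The 3 measured proteins of the box H/ACA snoRNPs, which pseudouridylate ribosomal RNA and also serve telomerase, moved apart. GAR1 stood at 10.66, 10.68 and 10.54 with DMSO and at 9.71, 9.71 and 9.86 with EED226 at day 6, a fall of 0.87 ± 0.06 with no overlap (limma adjusted p = 1.08e-12). NHP2 fell by only 0.26 ± 0.06, from 12.01, 12.09 and 12.03 to 11.67, 11.81 and 11.88. Its call was lost with only the arrays compared (limma adjusted p = 0.0787), and it differed by -0.40 with the ACTB measure of RNA quality, described below, as a covariate. NOP10 read 11.72, 11.73 and 11.68 with DMSO and 11.78, 11.98 and 11.90 with EED226.

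NOP10 was the only gene of the 45 above its control at day 6, by 0.18 ± 0.06 (limma adjusted p = 0.0154). The call was lost without EED226 day 6 replicate 2, and also with that covariate, where the difference was 0.07 (adjusted p = 0.472). It stood in 13 of 16 settings, and no setting gave a negative difference.

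The nucleolar scaffolds and chaperones fell by very different amounts. LYAR, a nucleolar zinc finger protein that promotes precursor processing, stood at 10.68, 10.48 and 10.26 with DMSO and at 9.27, 9.13 and 9.02 with EED226 at day 6. All treated arrays lay lower, with a difference of -1.34 ± 0.10 (limma adjusted p = 9.65e-12). It was also among the early genes, at -0.35 ± 0.10 by day 2 and -0.73 ± 0.10 by day 3, though its day 2 call was lost on leaving out each of the 6 arrays of that day in turn. TCOF1, also called treacle, which links RNA polymerase I to processing, fell by 0.62 ± 0.13 at day 3 and by 0.94 ± 0.13 at day 6.

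Nucleolin and nucleophosmin, abundant nucleolar proteins that bind ribosomal RNA and histones, changed less. NCL stood at 12.24, 12.27 and 12.30 with DMSO and at 11.71, 11.59 and 11.70 with EED226 at day 6, a difference of -0.60 ± 0.07. NPM1 stood at 13.32, 13.31 and 13.36 with DMSO and at 13.03, 13.06 and 13.15 with EED226. Its difference of -0.25 ± 0.05 (limma adjusted p = 0.000157) was the smallest fall of the 45 genes. The call was lost with only the arrays compared in the fit (limma adjusted p = 0.0651). The size for NPM1 depended on the probe set, since its other 2 probe sets differed by -0.70 and -1.26 and the average of all gave -0.74. NOLC1, a chaperone of snoRNPs, differed by -0.59 with the probe set used and by -1.75 and -0.99 with its others.

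**Figure D3:**
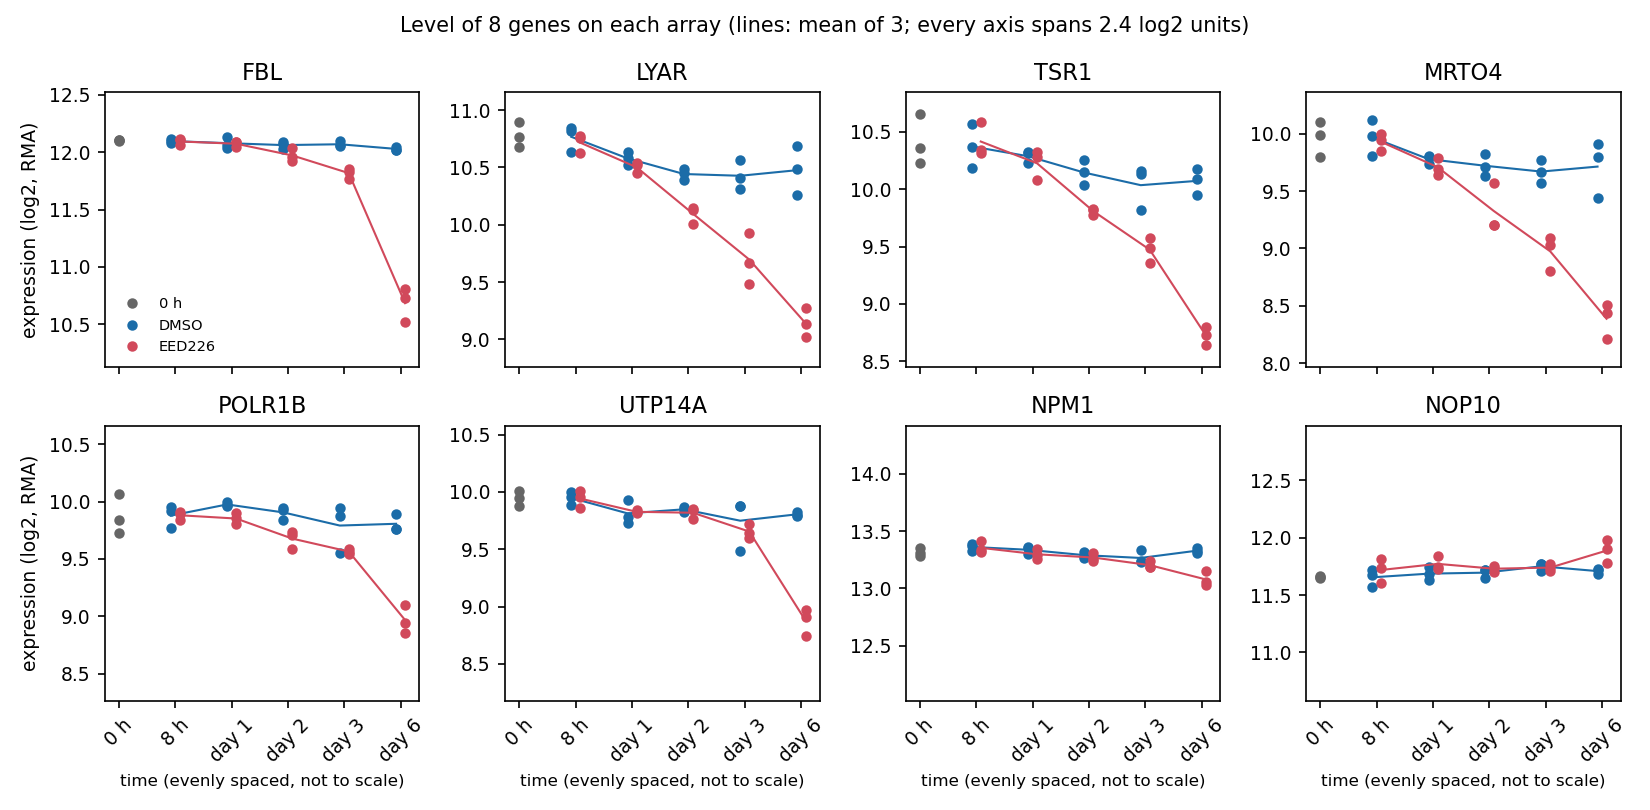
Level on each array (vertical axis, log2 RMA value) of 8 genes at 0 h and with DMSO or EED226 over time (horizontal axis, evenly spaced and not to scale); points are arrays and lines join means of 3. FBL and UTP14A stay near their controls until day 3, the means of LYAR, TSR1 and MRTO4 lie lower from day 2, NPM1 moves little and NOP10 ends above its control.

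All 16 measured genes of small subunit processing fell at day 6, with a median of -0.73. TSR1, a factor of late small subunit assembly, had the lowest difference of the 45 genes. It stood at 10.18, 10.09 and 9.95 with DMSO and at 8.73, 8.64 and 8.80 with EED226, a difference of -1.35 ± 0.11 (limma adjusted p = 3.65e-11). A second probe set of TSR1 gave -1.43 and another, dimmer one gave 0.21, and the average of all was -0.76. UTP20 and UTP15, parts of the small subunit processome, fell by 1.10 ± 0.10 and 1.01 ± 0.10. Their colleague UTP14A stood at 9.79, 9.83 and 9.80 with DMSO and at 8.74, 8.91 and 8.97 with EED226.

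UTP14A was at -0.09 ± 0.08 at day 3, where its arrays overlapped and it did not pass, and at -0.93 ± 0.08 at day 6. Over the 16 settings its day 6 difference ranged from -0.99 to -0.57, that of UTP15 from -1.17 to -0.66 and that of RRP12 from -0.86 to -0.32. RRP12, which takes part in the export of both subunits, had the opposite timing, at -0.34 ± 0.10 by day 2, -0.48 ± 0.10 by day 3 and -0.59 ± 0.10 by day 6. RRP9, a protein of the U3 snoRNP, fell least of the 16. It read 6.22, 6.22 and 5.84 with DMSO and 5.47, 5.63 and 5.85 with EED226, so the highest treated array passed the lowest control. Its difference was -0.44 ± 0.13 (limma adjusted p = 0.00482). The call was lost with only the arrays compared (limma adjusted p = 0.0518), and the difference was -0.72 after a second quantile normalization.

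All 11 measured genes of large subunit processing fell at day 6, with a median of -0.72. MRTO4, which holds the place of the ribosomal stalk during assembly, stood at 9.91, 9.80 and 9.44 with DMSO and at 8.51, 8.44 and 8.21 with EED226. It differed by -1.33 ± 0.12 (limma adjusted p = 1.46e-10), after -0.40 ± 0.12 at day 2 and -0.70 ± 0.12 at day 3. Its day 2 call was lost without DMSO day 2 replicate 1 or 2 and without EED226 day 2 replicate 2 or 3. WDR12, which works in a complex with PES1 and BOP1, stood at 10.96, 10.94 and 10.92 with DMSO and at 9.49, 9.62 and 9.72 with EED226.

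WDR12 differed by -1.33 ± 0.06 at day 6 (limma adjusted p = 7.39e-17), and by -0.26 ± 0.06 at day 2 (limma adjusted p = 0.00236). The average of its probe sets gave -0.52 at day 6, which passed (limma adjusted p = 0.00103), and -0.20 at day 2, which did not. Its partner PES1 fell by 0.72 ± 0.09 at day 6. NOP16 and PA2G4 fell by 1.28 ± 0.07 and 1.13 ± 0.07, and over the 16 settings NOP16 ranged from -1.36 to -0.78. GRWD1, a chaperone of histones and of a ribosomal protein, fell least of the 11, from 7.74, 7.76 and 7.61 to 7.27, 7.35 and 7.40, a difference of -0.37 ± 0.07 with no overlap. After a second quantile normalization GRWD1 differed by -0.60.

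The 3 DEAD-box helicases, enzymes that unwind RNA during assembly, all fell. DDX56 stood at 8.25, 8.19 and 8.02 with DMSO and at 7.26, 7.58 and 7.40 with EED226 at day 6, a difference of -0.74 ± 0.10. DDX21 differed by -0.74 ± 0.05. DDX10 stood at 10.91, 10.87 and 10.75 with DMSO and at 10.22, 10.21 and 10.35 with EED226, a difference of -0.59 ± 0.06. With probe sets averaged per gene the differences were -0.37 for DDX56 and -0.39 for DDX10, and both passed. POP1, a protein of RNase MRP, the ribonucleoprotein that cleaves the precursor RNA, and of RNase P, was the dimmest of the 45, at 6.10 on average. It read 6.13, 6.17 and 5.36 with DMSO and 5.28, 5.29 and 5.54 with EED226 at day 6, with 1 DMSO array, replicate 3, inside the treated range.

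POP1 differed by -0.52 ± 0.19 (limma adjusted p = 0.0235), and passed in 10 of 16 settings. Without DMSO day 6 replicate 3 the difference was -0.78 ± 0.18 (limma adjusted p = 0.000590). The call was lost without DMSO day 6 replicate 1 or 2, or without EED226 day 6 replicate 1 or 2. With the ACTB covariate it was -0.27 and did not pass.

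**Figure D4:**
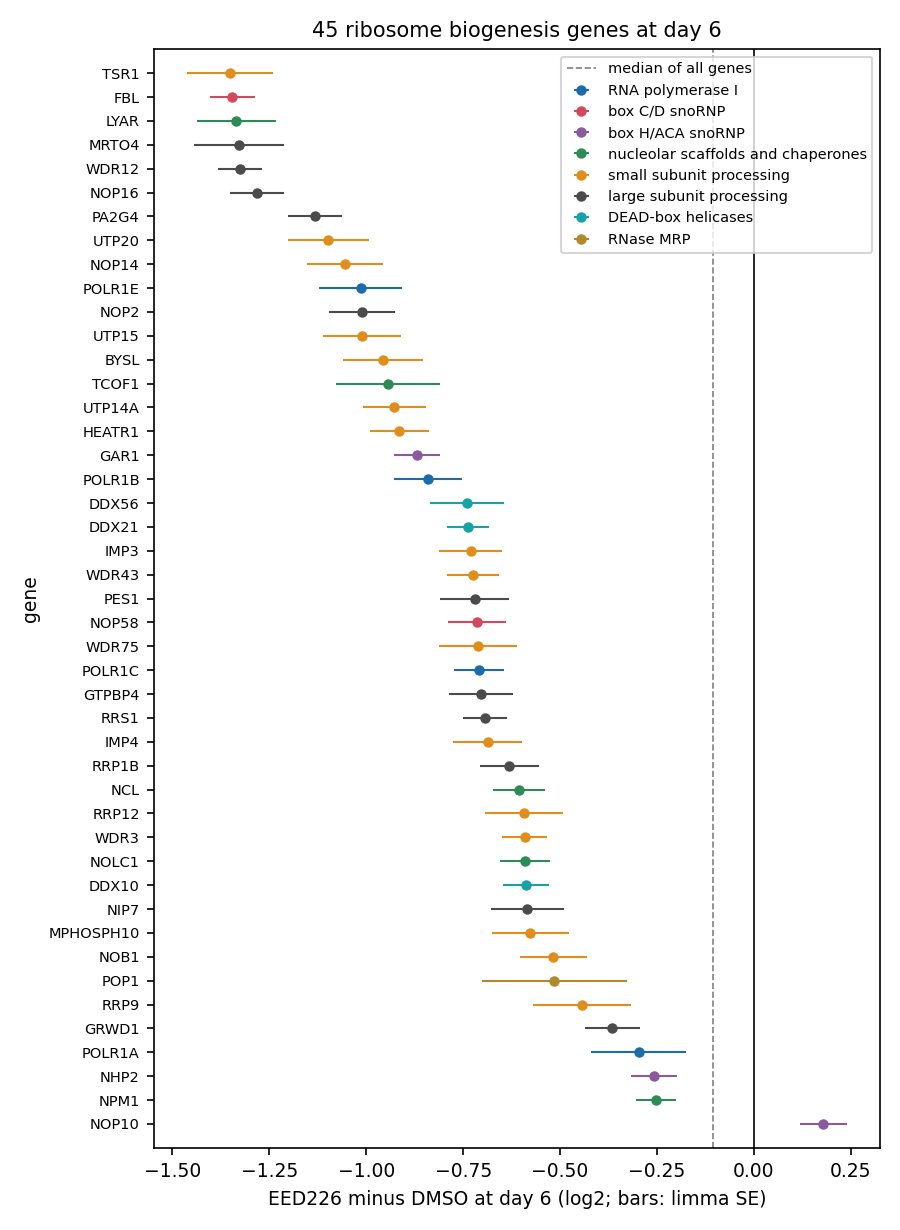
Difference between EED226 and DMSO at day 6 (horizontal axis, log2; point: limma estimate from 3 arrays a group, bar: SE) for the 45 genes in order, coloured by role. Differences run from -1.35 for TSR1 to 0.18 for NOP10, and the dashed line marks the median of all genes at -0.11.

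Within the set the fall ranged widely, and 12 of 45 genes fell at least 2-fold at day 6. The quartiles of the differences were -1.01 and -0.59. Over all genes, the 3rd percentile of the day 6 differences was -0.99. Levels did not order the genes: across the 45, the day 6 difference and the mean level had Pearson r = 0.02 and Spearman rho = 0.04, given as a description over genes of the same arrays. The deposited arrays also carried 45 other probe sets for 26 of the genes. Of these, 5 had the opposite sign at day 6, 1 each of DDX56, GTPBP4, RRP12, TSR1 and WDR12.

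Most of the fall came between day 3 and day 6, the longest of the steps compared. The steps were of unequal length, and rates per day were not compared, so a later quickening is not shown. The change in the EED226 effect from day 1 to day 2 passed for 0 of 45 genes in limma, beside 0.576% of all genes, with 8 at an unadjusted p under 0.05. From day 2 to day 3 it passed for 0 genes, beside 0.511% of all, with 3 at an unadjusted p under 0.05. Both shares are for the adjusted p, and no share stands beside the unadjusted counts. From day 3 to day 6, 35 of 45 genes fell further and 0 rose, with a median change of -0.46, while 10.7% of all genes fell further. The largest of these changes was that of FBL, at -1.09 ± 0.08, followed by WDR12 at -0.84 ± 0.08 and UTP14A at -0.83 ± 0.12.

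RRP12 changed by -0.12 ± 0.14 from day 3 to day 6 (limma adjusted p = 0.602) and TCOF1 by -0.32 ± 0.19 (adjusted p = 0.233), and neither passed. For 38 of the 45 genes the difference went lower at each step from day 1 to day 6, a course that was not counted over all genes. In the median gene, 25.5% of the day 6 difference was present at day 2 and 40.0% at day 3. For FBL and UTP14A the share at day 3 was 18.7% and 10.2%, and for RRP12 it was 80.5%. These comparisons of neighbouring times share arrays, and their values are given side by side.

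In the solvent controls most of the genes lay slightly below their 0 h level, and few passed the test. The median difference from 0 h was -0.01 at 8 h, -0.08 at day 1, -0.12 at day 2 and -0.15 at both day 3 and day 6. At 8 h, 0 genes passed in limma, beside 0% of all genes, and 0 had an unadjusted p under 0.05. At day 1, 0 passed beside 0.177% of all genes, with 9 at an unadjusted p under 0.05, and at day 2, 0 passed beside 0.89%, with 14. These shares are for the adjusted p, and no share stands beside the 9 and the 14. At day 3, POP1 and NIP7 had fallen, beside 0.91% of all genes. At day 6, POP1 and PES1 had fallen, beside 0.895%. All 3 DMSO arrays of day 6 lay below all 3 arrays of 0 h for 24 of 45 genes, where 9.52% of all genes did so. These 5 comparisons share the 0 h arrays, and those with EED226 share the DMSO arrays.

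The counts in the controls changed with single arrays and settings. Without 0 h replicate 1, 1 gene passed at day 3 and 0 at day 6, and without 0 h replicate 3, 5 and 4 passed. Without 0 h replicate 2, 1 passed at day 6. Without DMSO day 3 replicate 3, 1 passed at day 3, and without DMSO day 6 replicate 1, 2 or 3 there were 5, 4 and 0 at day 6. Leaving out DMSO day 6 replicate 3, which enters the earlier times only through the shared spread, gave 1 at day 2 and 9 at day 3. Shares of all genes in these runs are not given. POP1 stood at 6.98, 6.57 and 6.47 at 0 h, at 5.94, 6.09 and 5.43 with DMSO at day 3 and at 6.13, 6.17 and 5.36 at day 6. NIP7, which helps mature the large subunit, stood at 10.09, 10.21 and 10.07 at 0 h and at 9.51, 9.72 and 9.72 at day 3. By day 6 its DMSO arrays read 9.95, 9.93 and 9.93.

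PES1 stood between 8.55 and 8.68 on the 0 h arrays, above all 3 DMSO arrays of day 6, a fall of 0.37 ± 0.09 (limma adjusted p = 0.0288). Against 0 h, the EED226 arrays of day 6 were lower for 44 of the 45 genes, with a median of -0.89, and NOP10 was higher by 0.23 ± 0.06. Of all genes, 26.2% were lower and 22.1% higher in that comparison.

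The split of calls over all genes in the controls also moved with the scaling. At day 1, where few genes were called, 11.4% of the calls were falls with the deposited scaling, 0% with centred medians and 21.3% after a second quantile normalization. At day 2 these shares were 19.9%, 10.4% and 27.8%, and at day 6 they were 51.9%, 32.8% and 38.9%. At day 3, 180 genes had fallen and 418 had risen with the deposited scaling, 102 and 409 with centred medians, and 383 and 492 after the second normalization. Under that last scaling 11 of the 45 genes had fallen at day 3 and 2 at day 6. For the change from day 3 to day 6 in the EED226 effect, it moved the share of falls among all calls from 43.1% to 56.5%, and 40 of the 45 genes had fallen further and 1 had risen.

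The RNA control probe sets moved with the EED226 groups too. The 3' minus 5' value of the ACTB control, which grows as RNA is less complete, was 3.50 to 4.14 on the EED226 arrays of day 6 and 2.87 to 3.29 on the DMSO arrays of day 6. It was 3.26 to 3.74 with EED226 and 3.05 to 3.16 with DMSO at day 3, and 3.02 to 3.49 and 3.04 to 3.25 at day 2. For GAPDH it was 0.52 to 0.74 with EED226 and 0.24 to 0.29 with DMSO at day 6. On all arrays other than those of EED226 at day 6 it was 0.23 to 0.44. Treatment and both control values moved together at day 6, so their parts in the fall cannot be told apart. With the ACTB difference as a covariate, 13 of 45 genes had fallen at day 2, 29 at day 3 and 40 at day 6, and 0 had risen. In the same fit 2.94%, 10.6% and 25.7% of all genes had fallen at these times. The day 6 calls lost were those of POLR1A, POP1, NOP10, RRP9 and MPHOSPH10, while LYAR stood at -1.05, MRTO4 at -0.90 and FBL at -1.39 with that covariate.

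**Figure D5:**
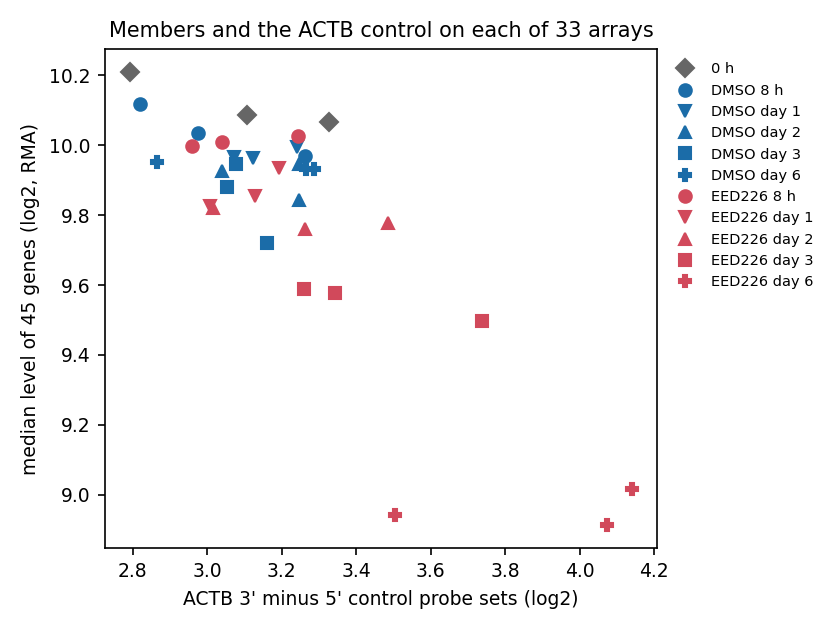
Median level of the 45 genes (vertical axis, log2 RMA value) against the ACTB control's 3' minus 5' value (horizontal axis, log2) on each of the 33 arrays, coloured by treatment with 1 symbol per time. The EED226 arrays of day 6 lie lowest, at 8.91 to 9.02. Their ACTB differences of 3.50 to 4.14 lie above those of DMSO at day 6, 2.87 to 3.29. They overlap those of EED226 at day 3, where the median level was 9.50 to 9.59.

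Genes of the pathway outside the 45 followed in smaller steps. Of 122 such genes, 119 were measured, and 26 had fallen at day 2, 74 at day 3 and 94 at day 6, while 5 had risen at day 6. Of all genes, 2.68%, 11.2% and 27.3% had fallen at these times and 23.7% had risen at day 6, shares that also stand behind the 4 lists below. Their median difference at day 6 was -0.49. Of 11 other RNA polymerase I factors 5 fell and 2 rose, of 38 other small subunit factors 30 fell and 2 rose, and of 48 other large subunit factors 41 fell and 0 rose. Of 22 genes of rRNA cleavage and the exosome 18 fell and 1 rose. EXOSC2, a subunit of the RNA exosome, stood at 7.77, 7.74 and 7.52 with DMSO and at 6.17, 6.27 and 6.41 with EED226, a difference of -1.39 ± 0.08. NLE1, a large subunit factor, went from 6.66, 6.81 and 6.40 to 5.20, 5.38 and 5.53, a fall of 1.25 ± 0.13.

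TAF1C, a subunit of the promoter selectivity factor of RNA polymerase I, read 6.91, 7.03 and 6.26 with DMSO and 7.45, 7.67 and 7.11 with EED226 at day 6. It rose by 0.67 ± 0.13, and by 0.44 ± 0.10 without DMSO day 6 replicate 3, its lowest array. FCF1, a small subunit factor, read 6.67, 6.95 and 6.20 with DMSO and 7.02, 6.99 and 6.87 with EED226, with overlap. Its difference was 0.35 ± 0.13 (limma adjusted p = 0.0255), and 0.15 ± 0.12 (limma adjusted p = 0.319) without that DMSO array. The call was also lost without EED226 day 6 replicate 1 or 2, and the lowest value over its 16 settings was -0.16, so its sign changed.

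The RNA of MYC, measured by 1 probe set, was level with its controls at days 2 and 3 and lower at day 6. It stood at 11.85, 11.80 and 11.71 with DMSO and at 11.90, 11.72 and 11.70 with EED226 at day 2, and at 11.89, 11.84 and 11.83 and at 11.81, 11.93 and 11.96 at day 3. The groups overlapped at both times, with differences of -0.01 ± 0.06 and 0.04 ± 0.06 that did not pass the test. At day 6 it stood at 11.88, 11.82 and 11.74 with DMSO and at 11.25, 11.33 and 11.35 with EED226, a fall of 0.50 ± 0.06 (limma adjusted p = 1.41e-07). In the solvent controls MYC was 0.26 ± 0.06 above 0 h at day 3 (limma adjusted p = 0.0186).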

How the data were processed

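Per the labels' protocols, TRIZOL was used to isolate RNA of 33 samples, and a kit that starts at the 3' end labelled it. The authors made log2 values per probe set with RMA and deposited them, per the submitters' processing notes; its version is not given in the sources used here. Such 3' labelled values depend on RNA integrity, and the number of arrays limits the precision. Of 54675 probe sets, 41097 had 1 gene symbol in the platform annotation, 1801 had several and 11777 had none; the latter were left out. For each of 19775 genes the brightest probe set over all arrays stood in, with EED226 arrays counted. Of the 45 listed genes measured, 19 had 1 probe set and 17 were measured by probe sets that can match several transcripts. All 45 lay above the median gene level, and no filter on low values was used.

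The model was fitted in limma 3.58.1, run under R 4.3.3 (lmFit and eBayes, two-sided), with 1 mean per group and 22 residual degrees of freedom. Alternatives changed the block, the arrays, the scaling, the choice of probe set, the filter, the variance prior, the array weights and the ACTB covariate, and left out each array in turn. Groups were taken from the sample titles. Same-numbered arrays of EED226 and DMSO deviated together at 8 h (r 0.199 to 0.318), day 1 (0.110 to 0.358) and day 2 (0.151 to 0.169). At day 3 r was -0.01 to 0.23 and at day 6 it was 0.05 to 0.13, while some pairs against 0 h had a negative r. Whether these values differ between times was not tested. The listed genes, the other lists and the tests were chosen with earlier results of these data known. Given with values per array were the genes with the lowest and highest day 6 difference in each role, the 5 largest and 3 smallest differences, genes of opposite sign, the 3 highest and 3 lowest in DMSO against 0 h at day 6, always FBL, NCL, NPM1 and POLR1B, 4 other pathway genes and MYC. Other genes named (POLR1C, TCOF1, NOLC1, UTP20, UTP15, UTP14A, RRP12, MPHOSPH10, NOP14, BYSL, NOP2, PES1, NIP7, NOP16, PA2G4, GTPBP4 and DDX21) were chosen after their values were seen. The fit was tested on simulated data: with 200 of 19775 genes lowered at day 6, it recovered 12% of changes of -0.25, 62% of -0.5, 98% of -1 and 100% of -2, with 9 false calls. In the real day 6 comparison 27.3% of all genes had fallen and 23.7% had risen, so these rates need not hold there.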

Additional observations from a re-analysis of the deposited data

Results flagged for a closer look

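The effect of EED226 differed between day 3 and day 6 in the test of that difference for 35 of the 45 genes, all lower at day 6. Among the genes described above the change was -1.09 for FBL, -0.84 for WDR12, -0.79 for TSR1, -0.63 for MRTO4, -0.61 for POLR1B and -0.60 for LYAR. It was -0.55 for GAR1, -0.53 for POLR1E, -0.49 for NOP58, -0.43 for NCL, -0.38 for DDX56, -0.37 for DDX10 and -0.25 for NHP2. RNA control probe sets also shifted between these times with EED226, and with the ACTB difference as a covariate 32 genes fell further in this comparison, beside 12.9% of all genes in the same fit.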

How the results depend on the processing

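The fall of the 45 genes at days 3 and 6 kept its direction in each alternative run, with 27 to 34 calls at day 3 and 42 to 45 at day 6 when single arrays were left out and 23 to 37 and 39 to 45 otherwise. At day 2 the count of 12 became 7 with only the arrays compared, 3 with array medians centred, 21 with quantile normalization again, 24 with array weights, and 2 to 19 with single arrays left out. Beside the 3 and the 21, 1.57% and 4.51% of all genes had fallen. For the other counts of this paragraph, shares of all genes are not given, so a move of the 45 genes alone is not shown. The median at day 6 was -0.80 with quantile normalization again, and at day 3, with single arrays left out, it ran from -0.34 (without DMSO day 3 replicate 3) to -0.27 (without DMSO day 3 replicate 1), while quantile normalization again gave -0.26. The change from day 3 to day 6 was called for 22 genes with only the arrays compared, and its median was -0.54 with quantile normalization again. Against 0 h, the EED226 median of day 6 was -0.82 with probe sets averaged per gene.

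For DMSO against 0 h, counts moved with most settings. At day 1 the trended robust prior gave 1. At day 2, quantile normalization, the mean of probe sets, genes above the median level, the trended prior and the ACTB covariate gave 1, the replicate block and array weights gave 2, and single arrays left out gave 0 to 1. At day 3, the replicate block gave 10, only the arrays compared 0, quantile normalization 11, the mean of probe sets 4, genes above the median level 15, the trended prior 12, array weights 4, the ACTB covariate 6, and single arrays left out 1 to 9 (9 without DMSO day 6 replicate 3). At day 6, the replicate block gave 8, only the arrays compared 0, array medians centred 1, the mean of probe sets 1, genes above the median level 8, the trended prior 5, and single arrays left out 0 to 5. Of all genes, 1.69% had fallen at day 3 and 2.77% at day 6 with the replicate block. These shares were 1.94% and 0.86% with quantile normalization again, and 0.516% and 0.389% with array medians centred. They were 1.09% and 0.961% with the ACTB covariate. Shares under the other settings are not given here. The cause was not tested.

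With the replicate block, EED226 against DMSO gave 0 calls at 8 h and day 1, 14 at day 2, TSR1 among the added ones, 34 at day 3 and 45 at day 6. All genes lower under that block were 3.62% at day 2, 12.3% at day 3 and 28.8% at day 6, and 24.3% were higher at day 6. Over 19 genes named by rule and 5 times, 55 of 1596 gene-by-setting values lost a call, 32 gained one and 0 reversed a call. A further 77 changed sign without being called in either setting. With 3 arrays a group, precision is limited for small differences such as those of POLR1A and NOP10.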
